A study of Mus musculus with 16 samples.

Results

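The regions described here are 2482 of the 82188 accessible regions (peaks) measured across the series, each 501 bp wide, that closed strongly in centrocytes of wild-type mice. They were selected on the libraries labelled WT replicate 1 and WT replicate 2: a peak was kept where its mean accessibility in the CB libraries was at least 10 CPM (the peak's count over all counts of the library in peaks, times 1000000) and at least 2.5 times its mean in the CC libraries. All tests below use libraries that this choice did not use. Accessibility was measured by bulk Omni-ATAC, in which a transposase cuts open chromatin, in spleen cells of C57BL/6 mice aged 8 to 10 weeks. The groups were HET CC, WT CC, HET CB and WT CB with 4 libraries each, where HET denotes the genotype Smarca4+/- and WT denotes Smarca4+/+, and the comparisons use the 4 HET libraries and WT replicates 3 and 4 of each cell label. The labels leave CB and CC unexplained, and centroblast and centrocyte are the reading used here. The labels name no sort gate, no Cre line and no deleted exon of Smarca4, and nothing says that the replicates are separate animals, so a p-value covers no more than the spread among these libraries, which may be technical.

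Germinal centers are the sites in lymphoid tissue where B cells mutate and select their antibody genes. Centroblasts divide and mutate in the dark zone, centrocytes test their receptors and receive T cell help in the light zone, and cells move between both states. The product of Smarca4, BRG1, is an ATPase within the BAF complex, which moves nucleosomes and helps keep enhancers accessible. The series asks how the loss of 1 copy of this gene changes chromatin in germinal center B cells.

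Most of the closing peaks lay away from promoters, so only a minority can be shown with their sequence. Promoter sequences of RefSeq (GRCm38.p6, the assembly that mm10 denotes) overlapped a closing peak by at least 200 of the 250 bases before the transcription start for 73 promoters. Those of 3 germinal center and plasma cell genes are printed first, 5′ to 3′ on the gene's strand. Rgs13 (chr1:144177373-144177622, minus strand) encodes a regulator that dampens chemokine receptor signaling, Gcsam (chr16:45610190-45610439, plus strand) encodes an adaptor abundant in germinal center B cells, and Jchain (chr5:88527898-88528147, minus strand) encodes the chain that joins IgM and IgA units.
Rgs13: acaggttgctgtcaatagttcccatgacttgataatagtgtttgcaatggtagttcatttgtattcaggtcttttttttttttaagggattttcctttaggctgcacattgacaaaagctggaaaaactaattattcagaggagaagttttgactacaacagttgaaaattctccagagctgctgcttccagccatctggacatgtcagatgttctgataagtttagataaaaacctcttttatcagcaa
Gcsam: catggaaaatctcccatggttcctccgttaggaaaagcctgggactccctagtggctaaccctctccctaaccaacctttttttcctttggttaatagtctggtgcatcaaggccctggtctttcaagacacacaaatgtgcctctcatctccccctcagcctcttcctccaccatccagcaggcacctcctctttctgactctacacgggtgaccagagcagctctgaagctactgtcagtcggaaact
Jchain: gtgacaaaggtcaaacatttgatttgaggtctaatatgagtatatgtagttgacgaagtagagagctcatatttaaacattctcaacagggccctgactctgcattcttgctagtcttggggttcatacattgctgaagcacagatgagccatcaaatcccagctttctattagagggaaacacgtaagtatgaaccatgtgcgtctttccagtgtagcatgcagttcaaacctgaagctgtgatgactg
These 3 promoters held none of the transcription factor motifs searched, by exact letters on both strands, and so carry no capitals. The Rgs13 stretch had 36.0% G or C and 0 CpG, the Gcsam stretch 51.6% and 3, and the Jchain stretch 42.0% and 3.

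The E-box CAGGTG, a motif of E proteins and of ZEB and SNAI repressors, was present in 23 of the 73 closing promoters (31.5%), against 1534 of 9976 promoters in any peak (15.4%) and 14.5% of the promoters in peaks with at least 10 CPM in CB. A match describes letters and not a bound site. The promoters below are examples, with the E-box, read on either strand as CAGGTG or CACCTG, in capitals. In Rassf6 a KLF motif (GGGCGTGG) is also in capitals. They lie at chr5:90640528-90640777 (Rassf6, minus strand), chr11:84068358-84068607 (Dusp14, minus strand), chr9:114026752-114027001 (Fbxl2, minus strand) and chr11:5057878-5058127 (Rasl10a, plus strand).
Rassf6: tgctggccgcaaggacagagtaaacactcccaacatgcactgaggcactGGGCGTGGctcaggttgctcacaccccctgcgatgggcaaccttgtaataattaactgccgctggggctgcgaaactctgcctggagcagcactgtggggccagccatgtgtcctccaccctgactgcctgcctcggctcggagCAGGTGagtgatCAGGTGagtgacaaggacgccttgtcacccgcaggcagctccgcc
Dusp14: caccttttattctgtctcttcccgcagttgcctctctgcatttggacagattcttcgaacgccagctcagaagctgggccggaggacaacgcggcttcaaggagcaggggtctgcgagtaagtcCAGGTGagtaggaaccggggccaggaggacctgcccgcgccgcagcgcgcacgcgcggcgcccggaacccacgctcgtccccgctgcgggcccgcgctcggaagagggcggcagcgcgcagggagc
Fbxl2: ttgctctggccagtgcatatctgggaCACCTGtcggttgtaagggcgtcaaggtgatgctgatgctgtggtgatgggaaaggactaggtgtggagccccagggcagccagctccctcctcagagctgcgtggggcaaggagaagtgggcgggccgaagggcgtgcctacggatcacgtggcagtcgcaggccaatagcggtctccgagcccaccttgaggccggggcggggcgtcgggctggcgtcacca
Rasl10a: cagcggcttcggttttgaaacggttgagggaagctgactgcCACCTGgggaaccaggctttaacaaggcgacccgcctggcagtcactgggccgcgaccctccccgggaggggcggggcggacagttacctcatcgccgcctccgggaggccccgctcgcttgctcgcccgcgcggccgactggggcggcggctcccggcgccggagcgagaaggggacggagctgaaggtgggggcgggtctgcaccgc
Rassf6 held the E-box at positions -57 to -52 and -45 to -40 from the start, and it lies in a closing peak at a locus with 6 of them. The other E-box searched, CAGCTG, stood in 14 of 73 closing promoters (19.2%, against 11.3% of promoters in any peak), the octamer ATTTGCAT in 3 (4.11%, against 1.57%) and the KLF letters in 13 (17.8%, against 10.4%). The ETS letters CCGGAAGT and the AP-1 letters TGANTCA stood in 0 of 73, against 6.73% and 3.77% of promoters in any peak. Closing promoters held a mean of 12.8 CpG in 250 bases, against 17.7 in promoters in any peak, at a median G and C content of 61.6% against 61.2%.

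Library totals were 5310327 to 7474760 counts in HET CC, 3494356 to 3750936 in WT CC, 38716281 to 51011923 in HET CB and 31696941 to 38798802 in WT CB. A closing peak held a median of 35 to 66 counts in a HET CC library, 22 and 24 counts in WT CC replicates 3 and 4, and 588 to 824 counts in the CB libraries compared, so the CC values carry most of the error. Pearson correlations of log2 CPM between replicates were 0.906 to 0.935 in HET CC, 0.863 to 0.872 in WT CC, 0.989 to 0.992 in HET CB and 0.985 to 0.990 in WT CB. HET CC replicates 2 and 4 stood apart from the other HET CC libraries on the closing peaks, and the main comparisons, gene lists and loci are also given without them. B cell marker loci (8 genes, 109 peaks, all accessible) summed to 1359 to 1403 CPM in HET CC, 1354 and 1504 in WT CC replicates 3 and 4, 1642 to 1666 in HET CB and 1722 and 1797 in WT CB. The Smarca4 locus (9 peaks) summed to 134 to 158 CPM in HET CC and 148 and 174 in WT CC replicates 3 and 4, and to 165 to 170 in HET CB and 171 and 184 in WT CB. Peaks outside a deleted part do not check a genotype label, and which part is deleted was not given.

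In the 2 WT replicates that chose them, the peaks had a median of 5.01 CPM in CC and 16.03 CPM in CB, and the median ratio of CB to CC was 3.09, up to 11.5 at a peak 42.6 kb from Gpatch2. The members just inside the threshold were peaks in Ranbp9 (4.75 CPM in CC against 11.9 in CB), Zdhhc20 (5.73 against 14.3) and Mctp2 (6.86 against 17.2). The peaks just outside it lay near 1700065D16Rik (4.60 against 11.5), at Fads2 (7.24 against 18.1) and in Kcnip1 (6.72 against 16.8). Both sets had ratios that round to 2.5, so the edge of the set is arbitrary. The 4 brightest in WT CB replicates 3 and 4 were peaks 58.6 kb from Atl2, an ER-shaping GTPase gene, 29.8 kb from Myrfl, 98.6 kb from Lmo4, a LIM-only factor gene, and in Ndufa4l2, and they reached 46.5 to 65.0 CPM there.

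The closing peaks were mostly distal. Of the 2482, 1424 (57.4%) lay inside a gene span, 633 (25.5%) outside but within 50 kb of a gene, 246 (9.91%) farther away and 179 (7.21%) within 1 kb of a gene end. Among all peaks 21.6% lay within 1 kb of a gene end, and among the 32225 peaks with at least 10 CPM in the same CB libraries 39.95% did. Within 1 kb of a transcription start lay 116 of the 2414 closing peaks on chromosomes with annotated starts in the table used (4.81%), against 18.9% of all peaks. They also sat in company: the median number of other peaks within 25 kb was 7, against 5 for all peaks, and 1332 closing peaks (53.7%) had another closing peak within 25 kb. Chromosome 16 had the highest share of its peaks in the set (117 of 2870, 4.08%) and chromosome X the lowest (24 of 2017, 1.19%). The set touched 1365 genes, of which 901 had 1 closing peak and 208 had 3 or more.

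The closing was seen again in libraries that had not chosen the peaks. In WT replicates 3 and 4, 2429 of the 2482 peaks were lower in CC than in CB (edgeR's quasi-likelihood test, adjusted p below 0.05 over all 82188 peaks), where 20.2% of all peaks were lower, and 0 were higher. In HET libraries, 2474 of 2482 were lower in CC, where 28.1% of all peaks were lower, and 0 were higher. The shares of closing peaks called lower were thus 97.9% in WT replicates 3 and 4 and 99.7% in HET. The peaks were chosen for closing, so counts of lower peaks at the loci and lists below say nothing particular about those genes. The median log2 fold change of CC over CB was -1.04 in HET (interquartile range -1.25 to -0.84) and -1.38 in WT replicates 3 and 4 (-1.70 to -1.10), against 0.00 and -0.01 over all peaks. All 4 HET CC libraries lay below all 4 HET CB libraries at 2434 closing peaks (98.1%), against 24.9% of all peaks. In a bulk measurement, fewer open cells of a type and less accessibility per cell cannot be told apart.

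HET CC kept more of the CB accessibility at these peaks than WT CC did. The closing peaks took 1.92, 2.48, 1.87 and 2.57% of all counts in HET CC replicates 1 to 4, against 1.67 and 1.77% in WT CC replicates 3 and 4. Every HET CC library lay above both WT CC libraries, and replicates 2 and 4 lay highest. The mean share was 2.21 ± 0.37% in HET CC (SD, n = 4) and 1.72 ± 0.076% in WT CC (SD, n = 2), with p = 0.133 in a two-sided exact permutation test, which is the smallest p that 4 against 2 libraries allow. The share was 4.60, 4.53, 4.58 and 4.55% in HET CB replicates 1 to 4, against 4.46 and 4.62% in WT CB replicates 3 and 4, so the CB groups overlapped (two-sided exact permutation p = 0.667). In WT CC replicates 1 and 2, which chose the peaks, the share was 1.47 and 1.39%, lower than in every other library, and these values are a description only.

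**Figure D1:**
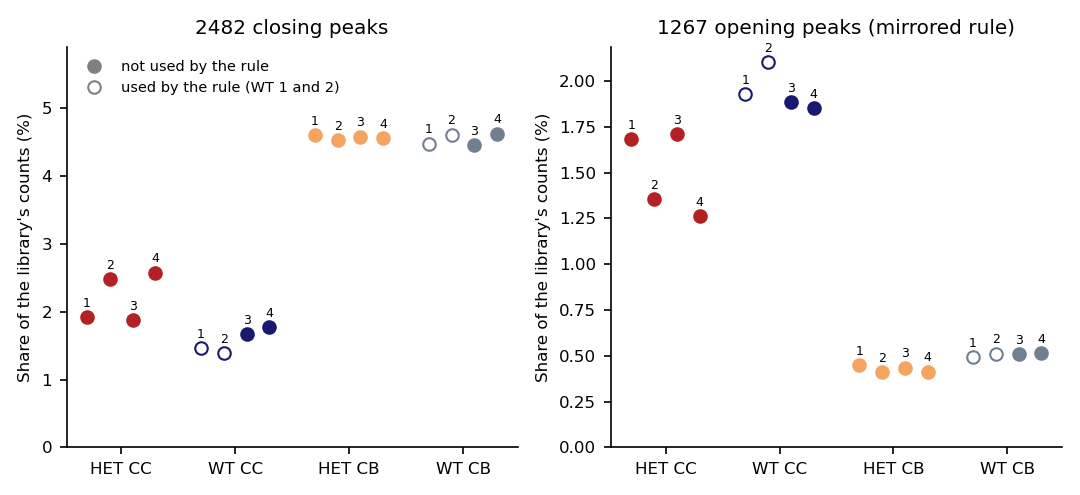
Each point is 1 library, with its replicate number, and the vertical axis is the percent of the library's counts in the 2482 closing peaks (left) and in the 1267 peaks of the mirrored rule (right); open points are the WT libraries that chose the peaks. On the left HET CC libraries span 1.87 to 2.57% and WT CC replicates 3 and 4 lie at 1.67 and 1.77%, while the CB groups overlap near 4.5%.

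Per peak, accessibility in CC as a percent of that in CB had a median of 48.1% in HET (quartiles 41.4 and 55.4%) and 37.4% in WT replicates 3 and 4 (29.9 and 45.3%). With HET CC replicates 1 and 3 alone the HET median was 41.1% (quartiles 33.9 and 49.1%), and with replicates 2 and 4 alone it was 54.9%. Without replicates 2 and 4 the median log2 fold change of CC over CB in HET was -1.27, against -1.37 in WT in the same fit. In HET 517 peaks fell under the 40% that the rule's threshold stands for (1132 with replicates 1 and 3 alone), against 1446 peaks in WT replicates 3 and 4 and all 2482 in the WT libraries that chose them. None reached 100% in HET and 1 did in WT replicates 3 and 4. Spearman's rho between the rule's log2 ratio and the log2 fold change of CC over CB was -0.40 in HET and -0.36 in WT replicates 3 and 4, across 2482 peaks that share their libraries.

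**Figure D2:**
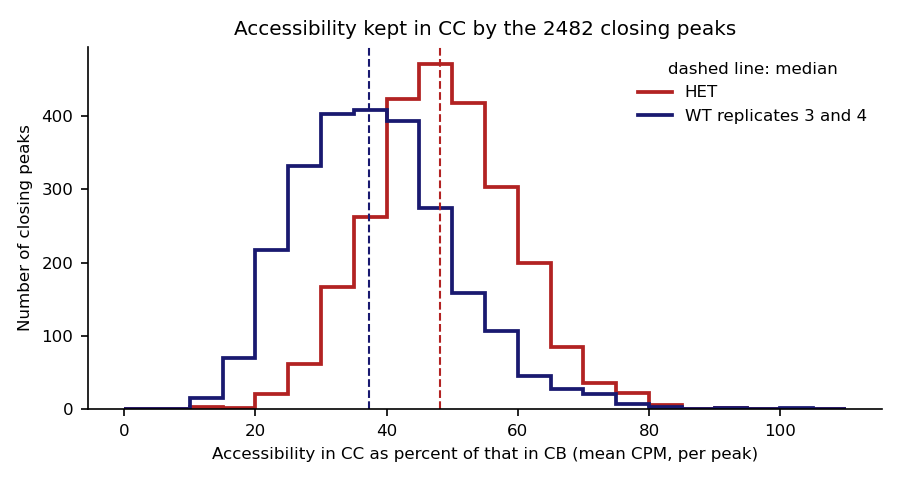
The horizontal axis is mean CPM in CC as a percent of mean CPM in CB for each of the 2482 closing peaks, in bins of 5 percentage points, and the vertical axis is the number of peaks; dashed lines are the medians. The HET outline lies to the right of the outline for WT replicates 3 and 4, with medians of 48.1 and 37.4%.

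Not every peak closed in the held-out wild types. In WT replicates 3 and 4, 53 peaks were not called lower (log2 -0.68 to 0.10), in HET 8 were not (-0.33 to -0.11), and 3 were called in neither. A peak in Dnaic2, which encodes a ciliary dynein chain, had 11.3, 11.2, 11.5 and 13.3 CPM in HET CC and 14.0 and 11.2 CPM in WT CC replicates 3 and 4, close to the 12.3 to 13.4 CPM in HET CB and the 12.5 and 11.7 CPM in WT CB. Its WT CC level in the libraries of the rule was 4.21 CPM. A peak 140 kb from Rybp, which encodes a Polycomb partner, had 3.77, 6.82, 4.71 and 5.02 CPM in HET CC, against 7.55 and 11.2 CPM in WT CC replicates 3 and 4, which lay above all 4 HET CC libraries. It closed in HET (log2 -0.93, SE 0.17, edgeR adjusted p = 1.08e-05) and was not called in WT replicates 3 and 4 (log2 -0.03, SE 0.25, adjusted p = 0.936). In WT CC replicates 1 and 2, which the rule used, it had 3.00 and 3.72 CPM, below all 4 HET CC libraries. The Dnaic2 and Rybp peaks were picked for their high CC to CB ratio in WT replicates 3 and 4. Their genotype contrast is therefore a description only.

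Set against WT replicates 3 and 4 directly, HET CC libraries were higher at 12 closing peaks and lower at 0 (edgeR's quasi-likelihood test, adjusted over all 82188 peaks), where 0.0475% of all peaks were higher and 0.0365% lower. At an unadjusted p below 0.05 the test gave 726 higher and 13 lower closing peaks (29.3 and 0.524%), against 6.85% higher and 6.62% lower over all peaks. The median log2 fold change of HET over WT in CC was 0.35 over the closing peaks (interquartile range 0.11 to 0.59) and 2080 of 2482 (83.8%) lay above 0, against a median of 0.00 and 50.2% above 0 over all peaks. All 4 HET CC libraries exceeded both WT CC libraries at 630 closing peaks (25.4%), against 10.7% of all peaks, and lay below both at 25 (1.01%), against 8.09%. The shift differed in size between libraries: 2200 and 2264 closing peaks lay above the mean of WT CC replicates 3 and 4 in HET CC replicates 2 and 4, and 1566 and 1509 in replicates 1 and 3. HET CC replicates 2 and 4 both exceeded both WT CC libraries at 1665 closing peaks (67.1%, against 24.5% of all peaks), and replicates 1 and 3 did so at 672 (27.1%, against 18.7%). Without HET CC replicates 2 and 4 the test called 0 closing peaks, with 261 higher and 107 lower at an unadjusted p below 0.05 (10.5 and 4.31%, against 5.32 and 5.58% of all peaks), and the median was 0.13, with 1551 peaks above 0. DESeq2 on all 12 libraries called 147 higher and 4 lower (5.92 and 0.161%), where it called 0.647% of all peaks higher and 0.986% lower. Cyclic loess with limma called 269 higher and 8 lower, where it called 2.57% of all peaks higher and 0.987% lower. The edgeR test on the CC libraries alone called 0, with 510 higher and 9 lower at an unadjusted p below 0.05 (20.5 and 0.363%, against 4.36 and 4.62% of all peaks tested). Leaving out 1 library at a time gave 71 and 87 higher peaks without HET CC replicates 1 and 3, 0 and 2 without HET CC replicates 2 and 4, 4 and 0 without WT CC replicates 3 and 4, and 7 to 9 without each CB library, while the median stayed between 0.28 and 0.43.

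In CB the median log2 fold change of HET over WT was 0.01 over the closing peaks and -0.01 over all peaks. The interquartile range of the closing peaks was -0.06 to 0.08, and 0 of them were called by edgeR's test, where it called 0.00973% of all peaks. At an unadjusted p below 0.05 it gave 35 higher and 38 lower (1.41 and 1.53%), against 1.48% higher and 3.72% lower over all peaks. DESeq2 called 1 closing peak higher, where it called 0.00608% of all peaks higher and 0.0767% lower. On the CB libraries alone, edgeR's test called 4 closing peaks higher and 2 lower (0.161 and 0.0806%). Over all peaks tested in that fit it called 0.0450% higher and 0.103% lower. At an unadjusted p below 0.05 that fit gave 226 higher and 119 lower closing peaks (9.106 and 4.795%). Of all 82152 peaks tested it gave 4958 higher and 5025 lower. The difference between the HET effects, CC minus CB, had a median of 0.34 (0.11 without HET CC replicates 2 and 4) and gave 0 calls by edgeR's test, where it called 0.00122% of all peaks. At an unadjusted p below 0.05 it gave 581 positive and 13 negative (23.4 and 0.524%), against 5.59% positive and 3.54% negative over all peaks. DESeq2 called 43 positive and 2 negative (1.73 and 0.0806%), where it called 0.127% of all peaks positive and 0.151% negative. At no single closing peak did the edgeR fit call the effect in CC different from that in CB.

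**Figure D3:**
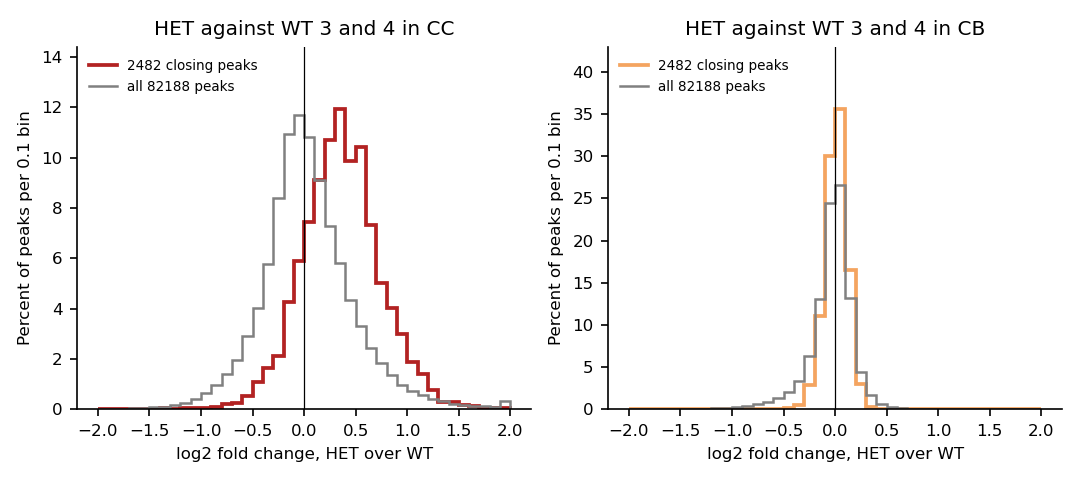
The horizontal axis is the log2 fold change of HET over WT replicates 3 and 4, in CC (left) and CB (right), and the vertical axis is the percent of peaks per bin of 0.1; values past 2 in either direction stand in the end bins. In CC the closing peaks have a median of 0.35 and all peaks one of 0.00, and in CB the closing peaks have a median of 0.01.

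The median HET effect in CC lay between 0.32 and 0.42 in every band of position, CB level and ratio, while the gene lists and loci below ranged wider. By position it was 0.39 beyond 50 kb of a gene, 0.37 inside genes, 0.32 outside but within 50 kb and 0.35 within 1 kb of a gene end. By CB level it was 0.32 under 15 CPM, 0.35 from 15 to 20, 0.38 from 20 to 30 and 0.42 at 30 CPM or more, with 78.9, 83.1, 89.8 and 94.2% of the peaks above 0. By the ratio of the rule it was 0.34 from 2.5 to 3, 0.36 from 3 to 4, 0.39 from 4 to 5 and 0.32 at 5 or more. Without HET CC replicates 2 and 4 the medians were 0.12 to 0.16 by position, 0.11, 0.12, 0.16 and 0.16 from the lowest to the highest CB level, and 0.12, 0.14, 0.14 and 0.07 from the lowest to the highest ratio. These are descriptions without a test. Among the promoters printed above for their E-box, the Fbxl2 peak had 13.0, 17.8, 12.1 and 21.0 CPM in HET CC, against 10.9 and 16.5 CPM in WT CC. The Rasl10a peak had 14.4, 10.6, 15.8 and 11.6 CPM in HET CC, against 16.2 and 13.6 CPM in WT CC. The genotypes overlapped at both, while both peaks were lower in CC than in CB in both genotypes. They also overlapped at the Rassf6 promoter peak (log2 0.22). The Dusp14 peak had 12.9, 10.3, 12.4 and 13.5 CPM in HET CC, against 8.39 and 9.33 CPM in WT CC. There every HET CC library lay above both WT CC libraries, without a call (log2 0.43, SE 0.21, edgeR adjusted p = 0.372).

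Some other measures also set HET CC replicates 2 and 4 apart. The 1267 peaks chosen by the mirrored rule, which opened in WT CC replicates 1 and 2, took 1.68, 1.35, 1.71 and 1.26% of counts in HET CC replicates 1 to 4, against 1.89 and 1.85% in WT CC replicates 3 and 4, and 0.412 to 0.450% in HET CB against 0.509 and 0.515% in WT CB. Replicates 2 and 4, highest on the closing peaks, were lowest on the opening ones. T cell marker loci (14 of 16 genes with a peak, 90 peaks, 1 of them a closing peak, none of these genes at 0) summed to 604, 557, 607 and 523 CPM in HET CC replicates 1 to 4, against 705 and 598 CPM in WT CC replicates 3 and 4, and to 372 to 384 CPM in HET CB against 398 and 393 in WT CB. Myeloid marker loci (11 of 14 genes, 42 peaks, none at 0) summed to 404, 371, 411 and 369 CPM in HET CC and 392 and 407 CPM in WT CC, and to 249 to 255 CPM in HET CB and 277 and 266 in WT CB. NK cell loci (10 genes, 38 peaks, none at 0) summed to 301 to 308 CPM in HET CC and 311 and 354 CPM in WT CC, and to 252 to 256 in HET CB and 256 in both WT CB libraries. B cell marker loci had 1401, 1359, 1403 and 1380 CPM in HET CC replicates 1 to 4, also lowest in replicates 2 and 4. Stromal and follicular dendritic cell loci (9 of 11 genes) had 442, 420, 432 and 430 CPM, against 448 in both WT CC libraries. Erythroid and megakaryocyte loci (4 of 8 genes) had 84.8, 98.7, 100 and 114 CPM, against 92.6 and 89.3 in WT CC, and did not share this order. HET CC replicates 2 and 4 also had the highest totals among the CC libraries. The part of marker loci, depth and these 2 libraries in the shift was not tested beyond the values without them; with CC libraries thinned to 3494356 counts and CB libraries to 31696941, the count of higher closing peaks was 15 and the median 0.35.

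Of the 12 closing peaks higher in HET CC than in WT CC, 8 lay inside genes and none within 1 kb of a gene end. Their log2 fold changes ran from 0.85 to 1.62. Each of the 12 had the same direction without HET CC replicates 2 and 4 (log2 0.54 to 1.42), and none was called then. The peak 7.1 kb from Taf4, which encodes a subunit of the general transcription factor TFIID, had the smallest p (chr2:179983511-179984011). It had 19.7, 25.7, 17.7 and 26.7 CPM in HET CC, against 11.2 and 8.53 CPM in WT CC replicates 3 and 4. In CB it had 40.3 to 41.2 CPM in HET and 37.9 and 39.6 CPM in WT. The CC groups did not overlap, and HET CC lay between WT CC and both CB groups (log2 1.18, SE 0.19, edgeR adjusted p = 0.0121). Non-overlap of the CC groups was a condition for naming this peak and those at Txndc5, Lonp2, Ncapg and Kcnrg, so it is a description only.

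The largest fold change among the 12 was at a peak in Txndc5, which encodes a protein disulfide isomerase of the endoplasmic reticulum (chr13:38522225-38522725). It had 11.7, 13.7, 8.85 and 16.6 CPM in HET CC, against 3.64 and 4.53 CPM in WT CC, and 21.6 to 23.2 CPM in HET CB against 21.7 and 22.4 CPM in WT CB. The CC groups did not overlap (log2 1.62, SE 0.28, edgeR adjusted p = 0.0127), and HET CC kept 56.8% of the HET CB level where WT CC kept 18.5% of the WT CB level. Neighbouring peaks in Lonp2, a peroxisomal protease gene, were both called (chr8:86643956-86644456 and chr8:86644491-86644991), and adjacent peaks are not independent. The first had 9.94, 13.2, 8.10 and 15.1 CPM in HET CC, against 3.08 and 4.53 CPM in WT CC (log2 1.59, SE 0.30, edgeR adjusted p = 0.0230). The second had 13.5, 14.3, 9.98 and 15.2 CPM in HET CC, against 6.15 and 4.53 CPM in WT CC (log2 1.30, SE 0.25, edgeR adjusted p = 0.0263). At both, every HET CC library exceeded every WT CC library, while CB ranged from 17.1 to 19.4 CPM in HET and 18.7 to 19.2 CPM in WT at the first peak.

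A peak in Ncapg, which encodes a condensin subunit that compacts mitotic chromosomes, had 10.8, 12.3, 9.98 and 12.3 CPM in HET CC, against 3.64 and 4.00 CPM in WT CC (chr5:45695107-45695607; log2 1.54, SE 0.30, edgeR adjusted p = 0.0291). Its CB levels were 13.9 to 16.4 CPM in HET and 13.3 and 18.2 CPM in WT. HET CC kept 74.3% of the CB level there, the most among the 12, against 24.2% in WT. A peak 84.1 kb from Kcnrg had 19.5, 27.7, 13.6 and 24.0 CPM in HET CC, against 10.6 and 8.26 CPM in WT CC (chr14:61696711-61697211; log2 1.17, SE 0.22, edgeR adjusted p = 0.0230). All 4 HET CC libraries again lay above both WT CC libraries.

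The other 6 were named because they were called, after their values had been seen. A peak in A4galt, whose enzyme makes the glycolipid CD77 that marks human centroblasts, had 7.54, 11.1, 10.4 and 9.58 CPM in HET CC, against 4.20 and 2.93 CPM in WT CC (chr15:83248253-83248753; log2 1.42, SE 0.29, edgeR adjusted p = 0.0368). A peak in Diaph3, an actin-nucleating formin gene, had 20.2, 31.6, 19.4 and 32.8 CPM in HET CC, against 12.9 and 13.9 CPM in WT CC (chr14:86679277-86679777; log2 0.95, SE 0.20, edgeR adjusted p = 0.0342). HET CC exceeded WT CC in every library at both. The peaks in Tbc1d16, a Rab GTPase-activating protein gene, in Eml6, a microtubule-associated protein gene, and 36.4 kb from Myrfl had log2 fold changes of 0.96, 0.85 and 1.36, and edgeR adjusted p-values of 0.0441, 0.0461 and 0.0440.

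**Figure D4:**
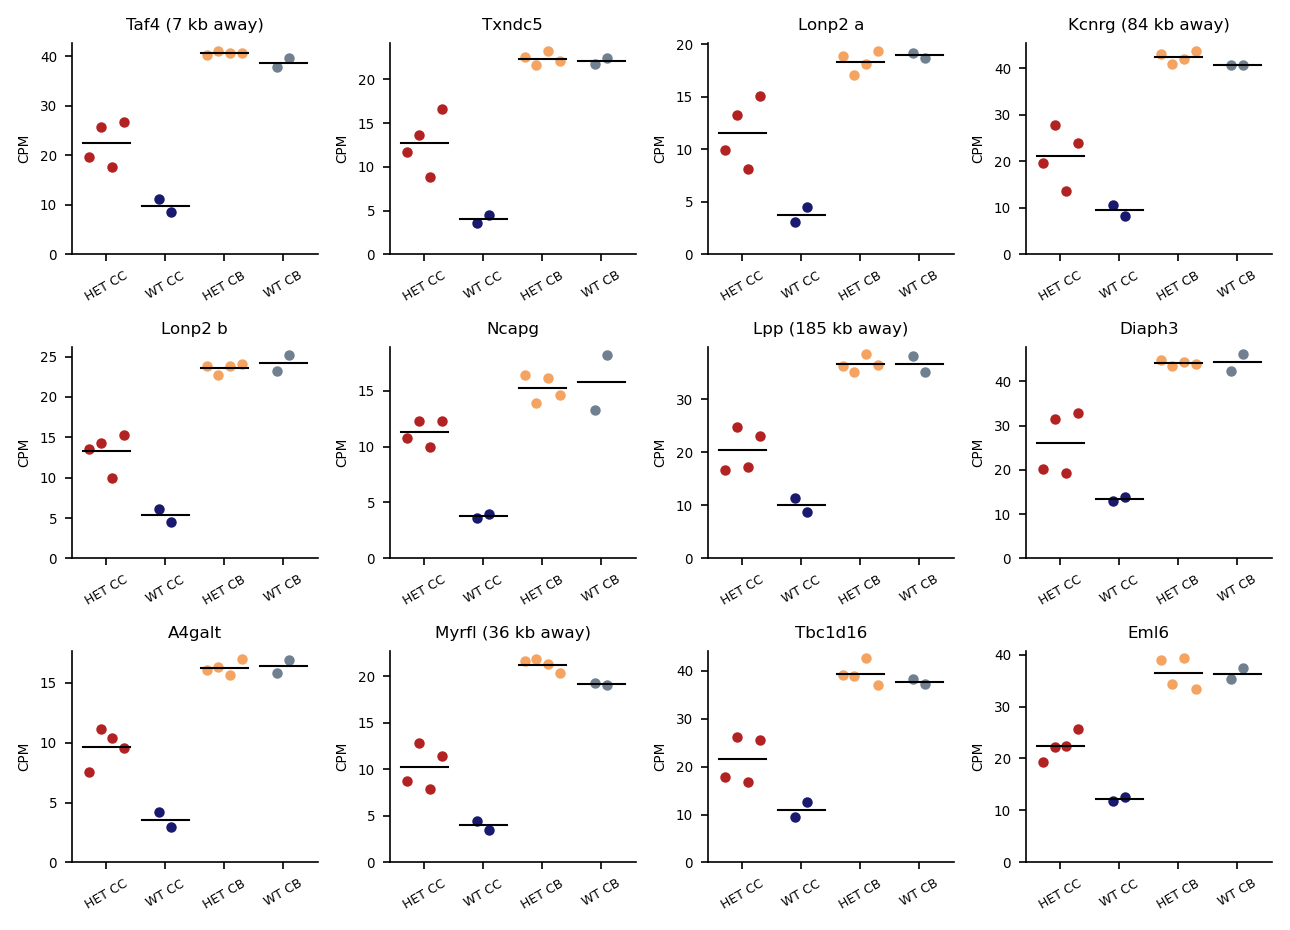
Each panel is 1 of the 12 closing peaks called higher in HET CC than in WT CC, by its nearest gene and, outside genes, its distance; points are CPM in single libraries (WT replicates 3 and 4 only) and bars are group means. In all 12 panels the 4 HET CC libraries lie above both WT CC libraries.

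The twelfth called peak lies in the interval between Bcl6, which encodes the master repressor of the germinal center program, and Lpp, and this interval was singled out after its peaks had been seen. The gap between both genes spans 404 kb and holds distal enhancers that are known to act on Bcl6 in germinal center B cells. Of its 51 peaks, 15 were closing peaks, 146 to 353 kb from Bcl6. They summed to 146, 192, 150 and 191 CPM in HET CC, against 116 and 118 CPM in WT CC replicates 3 and 4, and to 309 to 322 CPM in HET CB, against 334 and 318 CPM in WT CB. The HET CC libraries all lay above the WT CC libraries, while the CB groups overlapped. All 15 were lower in CC than in CB in both genotypes, and 13 of 15 had a positive HET effect in CC, with a median log2 of 0.53. The median of the 15 was 0.10 without HET CC replicates 2 and 4. The 36 other peaks of the interval summed to 251, 303, 304 and 301 CPM in HET CC, against 256 and 268 CPM in WT CC. There the CC groups overlapped, with a median HET effect in CC of 0.22. The called peak (chr16:24208118-24208618, 185 kb from Lpp) had 16.6, 24.8, 17.1 and 23.1 CPM in HET CC, against 11.5 and 8.80 CPM in WT CC (log2 1.00, SE 0.20, edgeR adjusted p = 0.0291).

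Of the genes with the most closing peaks, Zbtb20 led with 15 of its 56 peaks, all inside the gene (chr16:43394654-43524498). Zbtb20 encodes a zinc finger repressor expressed in germinal center B cells and needed by long-lived plasma cells. Its 15 peaks summed to 127, 150, 118 and 160 CPM in HET CC, against 87.3 and 99.98 CPM in WT CC replicates 3 and 4, and to 275 to 294 CPM in HET CB, against 270 and 295 CPM in WT CB. All 15 were lower in CC in both genotypes. All 15 also had a positive HET effect in CC, with a median of 0.53 and a smallest edgeR adjusted p of 0.104, and 12 of 15 without HET CC replicates 2 and 4 (median 0.43). At 10 of the 15 the HET CC libraries all exceeded both WT CC libraries, against 25.4% of all closing peaks and 10.7% of all peaks. These 15 peaks share their libraries and are not independent. The 41 other peaks of the locus had a median HET effect in CC of 0.21.

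Ssbp3, which encodes a partner of LDB1 complexes, had 11 of 25 peaks in the set. They summed to 71.0, 87.4, 67.4 and 94.8 CPM in HET CC, against 62.9 and 60.5 CPM in WT CC, and 10 of 11 were lower in CC in WT replicates 3 and 4 and all 11 in HET. Tcf4, which encodes the E protein E2-2, had 8 of 53. They summed to 60.8, 78.1, 54.0 and 87.9 CPM in HET CC, against 48.9 and 45.9 CPM in WT CC. At both loci every HET CC library lay above both WT CC libraries, and no single peak was called between genotypes (smallest edgeR adjusted p of 0.102 at Ssbp3 and 0.0932 at Tcf4). Without HET CC replicates 2 and 4 the median HET effect in CC was 0.28 at Ssbp3 and 0.30 at Tcf4, against 0.37 and 0.63 with them. Cnst had 9 of 16, Lrch1 8 of 36 and Rab37, a small GTPase gene, 8 of 17, and their median HET effects in CC were 0.45, 0.27 and 0.42. Without HET CC replicates 2 and 4 these were -0.02, with 4 of 9 peaks positive, 0.06 and 0.33, so the direction at Cnst rested on these libraries. At Cnst the groups overlapped: 80.4, 108, 68.5 and 126 CPM in HET CC, against 69.4 and 76.2 CPM in WT CC. At Rassf6, whose promoter is printed above, the 6 closing peaks among 11 summed to 67.0, 104, 70.2 and 99.7 CPM in HET CC, against 58.2 and 59.2 CPM in WT CC, and again did not overlap, with a median HET effect of 0.54, or 0.21 without HET CC replicates 2 and 4. At Dnase1, which encodes a secreted endonuclease, all 5 of 5 peaks were closing peaks, with a median HET effect in CC of 0.38, or 0.11 without HET CC replicates 2 and 4.

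Closing peaks lay at 16 of the 25 genes of the germinal center program. Of 328 peaks assigned to these 25 genes, 42 (12.8%) were closing peaks, against 2.99% of all assigned peaks. All 42 were lower in CC in both genotypes, as were 97.9% of all closing peaks in WT replicates 3 and 4 and 99.7% in HET. In CC 0 of 42 were called between genotypes by edgeR's test, the median HET effect was 0.49 and 39 of 42 were positive, against a median of 0.35 over all closing peaks; without HET CC replicates 2 and 4 the median was 0.29 and 33 were positive. The lists were written with earlier results of these data known, and the members named from them are those with the smallest p, so their values sit at the high end.

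Gcsam had 6 closing peaks among 7, the promoter printed above included. They summed to 69.8, 83.7, 61.8 and 100.5 CPM in HET CC, against 49.5 and 55.5 CPM in WT CC, and to 153 to 159 CPM in HET CB, against 150.5 and 166 CPM in WT CB. The 6 had a median HET effect in CC of 0.58, or 0.38 without HET CC replicates 2 and 4. Its promoter peak had 19.5, 18.6, 16.9 and 28.3 CPM in HET CC, against 13.1 and 12.5 CPM in WT CC (log2 0.67, SE 0.19, edgeR adjusted p = 0.113). HET CC lay above WT CC in every library, without a call. The Rgs13 promoter peak had 11.8, 14.3, 14.7 and 14.8 CPM in HET CC, against 11.2 and 8.00 CPM in WT CC, and the Jchain promoter peak 12.7, 18.3, 13.2 and 18.5 CPM against 11.2 and 9.60 CPM. Both were lower in CC than in CB in both genotypes and neither was called between genotypes.

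Fas, the death receptor that germinal center B cells carry, had 4 closing peaks, and the one named had 12.3, 19.0, 11.7 and 19.2 CPM in HET CC, against 3.36 and 10.7 CPM in WT CC (log2 1.12, SE 0.27, edgeR adjusted p = 0.0713; log2 0.74 without HET CC replicates 2 and 4). S1pr2 and Gna13, a receptor and its G protein that keep B cells in the follicle, had 3 and 4 closing peaks. The 3 at S1pr2 summed to 37.9, 51.5, 40.1 and 55.3 CPM in HET CC, against 28.5 and 38.9 CPM in WT CC, so HET CC replicate 1 overlapped WT CC, and their median HET effect of 0.42 was 0.15 without HET CC replicates 2 and 4. Bcl6 itself had 1 closing peak within 50 kb, with a HET effect in CC of 0.95 and an adjusted p of 0.265 by edgeR's test (0.78 without HET CC replicates 2 and 4).

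**Figure D5:**
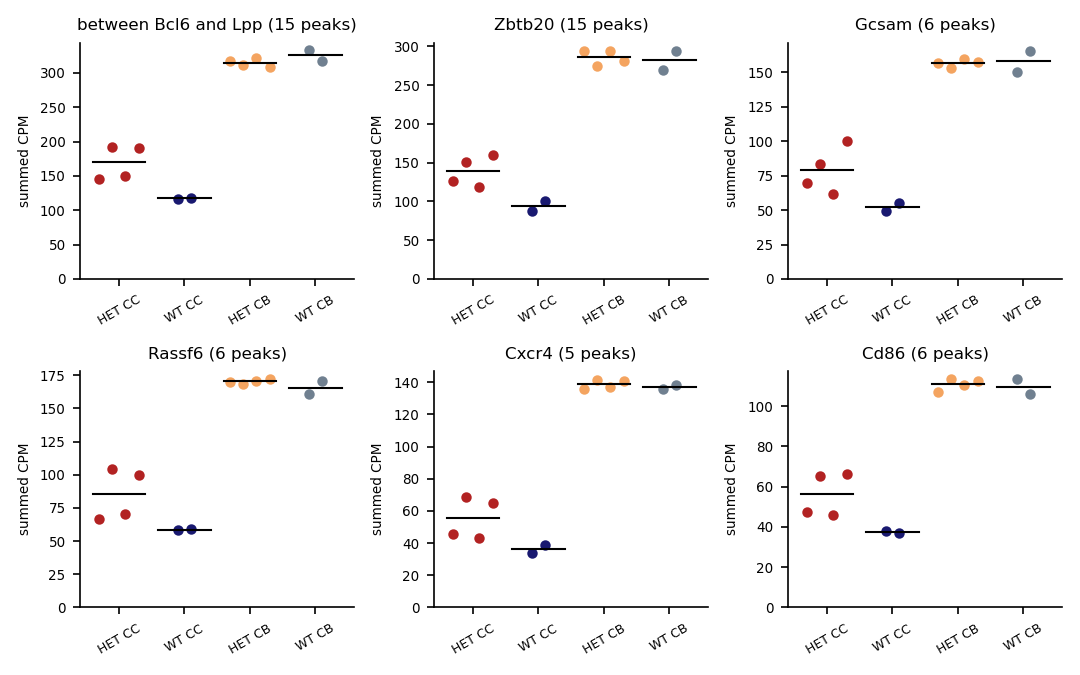
Each panel sums the CPM of the closing peaks at 1 locus; points are single libraries (WT replicates 3 and 4 only) and bars are group means. In all 6 panels the HET CC libraries lie above both WT CC libraries and below all CB libraries.

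Dark zone genes held 11 closing peaks among 226, at 6 of 16 genes. All 11 were lower in CC in both genotypes, with median log2 of -1.25 in HET and -1.75 in WT replicates 3 and 4. Their median HET effect in CC was 0.55, 10 of 11 were positive and 0 were called; without HET CC replicates 2 and 4 the median was 0.28. Cxcr4, the chemokine receptor that places cells in the dark zone, had 5. They summed to 45.8, 68.5, 42.9 and 64.8 CPM in HET CC, against 33.6 and 38.9 CPM in WT CC, and to 136 to 142 CPM in HET CB, against 136 and 138 CPM in WT CB. Their median HET effect in CC was 0.58, or 0.11 without HET CC replicates 2 and 4. The peak 10.7 kb from the gene had 4.80, 6.02, 6.21 and 6.12 CPM in HET CC, against 1.96 and 2.13 CPM in WT CC (log2 1.47, SE 0.36, edgeR adjusted p = 0.0776). The CC groups did not overlap, but WT CC replicate 3 held only 7 counts there. A peak 49.2 kb from Foxo1, which encodes a transcription factor that dark zone cells require, had 9.26, 11.4, 11.9 and 14.9 CPM in HET CC, against 4.20 and 8.80 CPM in WT CC (log2 0.83, SE 0.26, edgeR adjusted p = 0.145).

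Light zone genes held 12 closing peaks among 246, so closing peaks were not limited to dark zone genes. All 12 were lower in CC in HET and 11 in WT replicates 3 and 4, the exception being a peak 26.0 kb from Nfkb1. The median HET effect in CC was 0.47 and 11 of 12 were positive; without HET CC replicates 2 and 4 it was 0.14 with 8 positive. Cd86, a costimulatory ligand for T cells, had 6 inside the gene. They summed to 47.5, 65.2, 45.9 and 66.3 CPM in HET CC, against 38.0 and 36.8 CPM in WT CC, and to 107 to 114 CPM in HET CB, against 113 and 106 CPM in WT CB. HET CC lay above WT CC in every library, and no peak of the 6 was called (smallest edgeR adjusted p of 0.125). The 6 had a median HET effect in CC of 0.59, or 0.15 without HET CC replicates 2 and 4.

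B cell receptor signaling genes held 18 closing peaks among 439 (4.10%), all lower in CC in both genotypes. Their median HET effect in CC was 0.34, 14 of 18 were positive and 0 were called; without HET CC replicates 2 and 4 the median was 0.18. Nfatc1 encodes a calcium-driven transcription factor and Itpr1 a calcium channel. The Nfatc1 peak with the smallest p had 14.1, 10.4, 11.9 and 9.11 CPM in HET CC, against 3.64 and 7.73 CPM in WT CC (log2 0.94, SE 0.27, edgeR adjusted p = 0.108). The Itpr1 peak with the smallest p had 8.74, 8.56, 10.2 and 9.26 CPM in HET CC, against 4.75 and 6.67 CPM in WT CC (log2 0.64, SE 0.25, edgeR adjusted p = 0.247). HET CC lay above WT CC in every library at both, without a call. The other closing peaks had HET effects in CC of -0.25 and 0.37 in Nfatc1 and 0.29 in Itpr1.

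Plasma cell genes held 23 closing peaks among 202 (11.4%), 15 of them at Zbtb20, with the rest at Jchain, Slamf7, Cd9, Ell2 and Irf4. All 23 were lower in CC in both genotypes, and their median HET effect in CC was 0.53 with 22 positive and 0 called, or 0.39 without HET CC replicates 2 and 4. Memory B cell genes held 6 among 282 (2.13%), at Bach2, Cd44, Nt5e and Pdcd1lg2. Their median HET effect in CC was 0.11 and 3 of 6 were positive, or 0.02 without HET CC replicates 2 and 4. BAF complex genes held 5 among 226 (2.21%), 2 of them in Smarca4. Their median HET effect in CC was 0.10 and 5 of 5 were positive, and without HET CC replicates 2 and 4 it was -0.12 with 2 of 5 positive. The Smarca4 peaks summed to 19.5, 32.4, 20.1 and 26.1 CPM in HET CC, against 18.2 and 27.5 CPM in WT CC, and to 58.9 to 61.0 CPM in HET CB, against 63.9 and 58.1 CPM in WT CB. Both cell labels overlapped between genotypes there, the median HET effect in CC of 0.09 turned to -0.20 without HET CC replicates 2 and 4, and both peaks closed in CC in both genotypes (median log2 -1.25 in HET and -1.38 in WT replicates 3 and 4).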

How the data were processed

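The authors deposited a table of raw counts per peak for 82188 peaks in 16 libraries, and its columns were matched to libraries by title. Per the submitters' processing notes the tools were FastQC, BWA, deepTools and R 4.2.1 on build mm10; the peak caller, its filters and the way reads were counted are not given in the sources used here. Depth is given per library in the report; counts from amplified libraries are not independent molecules, so counting precision covers counting error only. Columns without a sample numbered 0.

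CPM are counts over the column total times 1000000 and serve the rule and all printed levels. Tests used edgeR 4.0.16 in R 4.3.3 on the counts of 12 libraries (HET replicates 1 to 4, WT replicates 3 and 4, both cell labels): trimmed mean of M-values scaling, filterByExpr, which removed 0 peaks, robust quasi-likelihood fits of a model of group means, and p-values adjusted by Benjamini-Hochberg across all 82188 peaks. An adjusted p below 0.05 is a call, and SE is the standard error of a fitted log2 fold change. The estimated biological coefficient of variation was 8.05%. Dispersion was estimated over all 12 libraries together, so p-values and SEs of CC comparisons also rest on the spread among the CB libraries. Those of CB comparisons likewise rest on the spread among the CC libraries. The script was tested on simulated data with the same spread in CC and CB libraries. That test therefore does not cover calls in the noisier CC libraries. Alternatives used DESeq2 1.42.0 and limma 3.58.1.

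Each peak takes the name of the closest protein-coding gene in RefSeq GRCm38.p6, measured from the peak's middle to the gene span; a limit of 50 kb applies to gene lists and loci. This does not show that the gene is its target. Named peaks are all called peaks and those of a rule. That rule took ratio extremes, smallest p among calls without overlap between genotypes, genes with most members, smallest p per list, least closed and brightest. The members, lists and motifs were chosen with earlier results of these data known. GC content and motifs of distal peaks were not analysed here. Some peaks that the naming rule picked are not reported here.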

Additional observations from a re-analysis of the deposited data

Results flagged for a closer look

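Of 86 groups of 4 HET libraries examined at the named peaks, 4 held a library that stood apart by Dixon's criterion at the 95% level (its gap to the nearest other library against the group's range), and chance gives about 1 in 20. The peak 10.7 kb from Cxcr4 had 4.80 CPM in HET CC replicate 1, against 6.02 to 6.21 CPM in the other HET CC libraries. The peak 19.0 kb from Irf4 had 24.7 CPM in HET CC replicate 4, against 13.9 to 15.6 CPM in the others. The Dnaic2 peak had 13.3 CPM in HET CC replicate 4, against 11.2 to 11.5 CPM in the others. The Zdhhc20 peak had 15.4 CPM in HET CB replicate 1, against 13.9 to 14.1 CPM in the others.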

How the results depend on the processing

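Of the summaries over all closing peaks, the near-zero CB median alone changed direction under the alternatives run. Without HET CC replicates 2 and 4, chosen after seeing the data, the median HET effects in CC at Cnst (-0.02, against 0.45 with them), of the BAF list (-0.12, against 0.10) and at Smarca4 (-0.20, against 0.09) also turned. The counts of calls between genotypes moved most. Higher closing peaks in HET CC numbered 12 in the report, 0 with CC libraries alone, 147 with DESeq2 (0.647% of all peaks higher), 269 with cyclic loess and limma (2.57% of all peaks higher, 0.987% lower), 20 of 4689 peaks chosen at a fold of 2 and 6 of 1383 at a fold of 3. Without HET CC replicates 2 and 4 it was 0, the HET median of CC over CB -1.27 and the CC genotype median 0.13. Lower ones numbered 4 with DESeq2, 1 with DESeq2 size factors and 8 with cyclic loess. In CB the CB libraries alone gave 6 calls, 4 higher and 2 lower (0.0450% of all peaks higher, 0.103% lower). DESeq2 gave 1 higher call in CB (0.00608% of all peaks higher, 0.0767% lower). The CB median was 0.026 with CB libraries alone and 0.025 after thinning. The interaction gave 45 calls with DESeq2 (0.127% of all peaks positive, 0.151% negative) and 1 with cyclic loess (0.0195% of all peaks positive). After thinning it gave 1, for which the share over all peaks is not given. The WT median of CC over CB was -1.13 with cyclic loess. Peaks lower in CC numbered 4602 in HET and 4410 in WT replicates 3 and 4 at a fold of 2, and 1380 and 1364 at a fold of 3, as more or fewer peaks were chosen. The cause of the other moves was not tested.

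Leaving out 1 library gave 0 to 87 higher and 0 to 1 lower calls in HET CC (median 0.28 to 0.43), 0 calls in CB (median -0.017 to 0.047), 0 to 6 interaction calls (median 0.26 to 0.41), 2213 to 2433 lower in WT CC (median -1.44 to -1.33) and 2461 to 2475 in HET CC (median -1.11 to -0.98). Of the 12 called peaks, each lost its call in 2 to 10 of the 12 such fits.

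The labels do not say whether replicate numbers pair the samples, and the main fit did not pair them. Deviations of same-numbered libraries correlated at 0.029 to 0.074 between CC and CB. Between genotypes they correlated at -0.021 to 0.0087 in CC and -0.12 to -0.097 in CB. Between CC and CB, 5 of 8 HET and 7 of 8 WT libraries correlated best with their own number. This is a hint that CC and CB are paired by number, which stays unsettled. Between genotypes 0 of 8 did in either cell label. With the number as a replicate block 8 peaks were called higher in HET CC, 0 in CB, and 2468 and 2422 lower in CC in HET and WT; with each genotype and number as 1 animal these were 2469 and 2422, and 0 interaction calls.

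CC depth limits single peaks: a closing peak held a median of 22 and 24 counts in WT CC replicates 3 and 4.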
